A study of Homo sapiens with 15 samples.

Results

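The oxidative phosphorylation genes, nuclear and mitochondrial, are described here in RNA immunoprecipitation sequencing of 2 human prostate cancer cell lines. Members were taken by name: nuclear genes beginning with NDUF, UQCR, ATP5 or COX and a digit, SDHA to SDHD with the genes named after them, and genes of the mitochondrial genome (MT- names) that have a row, with antisense names left out. In the table of the 22Rv1 line they came to 127 of 14296 genes and 187 of 22542 rows, and in the table of the LNCaP line to 129 of 14176 genes and 198 of 22169 rows. The tables together hold 131 member genes, of which 110 are nuclear and 125 were in both tables. A gene can have a row under its plain name, a row with the suffix .primary, or both. What the suffix stands for is not given in the sources used here, so the kinds of row were kept apart. The 22Rv1 members had 102 nuclear plain rows, 67 nuclear .primary rows and 18 mitochondrial rows, and the LNCaP members had 103, 74 and 21. No mitochondrial row carried the suffix.

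The respiratory chain passes electrons from NADH (complex I, the NDUF genes) and succinate (complex II, SDH) through complex III (UQCR) to oxygen at complex IV (COX), and complex V, the ATP synthase (ATP5), uses the proton gradient this builds to make ATP. The mitochondrial genome encodes core subunits of complexes I, III, IV and V, and the rRNAs and tRNAs that translate them inside the organelle, whereas complex II and all other subunits are made from nuclear mRNAs. Mitochondrial RNA is transcribed as long precursors that are cut at the tRNAs between the messages, and it stays within the mitochondrion.

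Libraries were made from formaldehyde-fixed 22Rv1 and LNCaP cells, established human prostate carcinoma lines, with no treatment recorded. Brg1, encoded by SMARCA4, is the ATP-driven motor subunit of SWI/SNF chromatin remodellers, and Sfpq is a nuclear RNA-binding protein of splicing and paraspeckles. In 22Rv1 there were 2 Brg1 libraries, 2 Sfpq libraries, 3 IgG libraries from a non-specific antibody, and 2 Input libraries of RNA that was not precipitated. The LNCaP line had 2 each of Brg1, IgG and Input. Nothing in the labels says that libraries of a group came from separate cultures, so p-values measure only the spread between these libraries, which may be technical.

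Values are RPM, a row's reads scaled to the total over all listed rows of its library. Reads per library were 490879 to 47871438 in 22Rv1, lowest in the 3 IgG libraries, and 6367908 to 7506724 in LNCaP apart from its IgG libraries, which held 22184 and 46297. The .primary rows took 38.2% and 34.8% of the reads in 22Rv1 Input, 65.7% and 62.7% in Brg1, and 27.5% and 33.4% in Sfpq. In LNCaP they took 42.3% and 35.2% in Input and 50.8% and 60.5% in Brg1. Of the 22Rv1 IgG libraries, replicates A and B had 62.5% and 59.5%, and replicate C, the shallowest, stood apart at 39.1%. Of 8 luminal prostate markers, 5 had a plain row in 22Rv1 Input, summing to 126.3 and 133 RPM, with KLK3 and KLK2 lacking any row, and all 8 had one in LNCaP Input, summing to 2624 and 2848 RPM. Of 14 markers of basal, stromal, endothelial, immune and neuroendocrine cells, 3 had a plain row in 22Rv1 (COL1A1, ACTA2 and SYP, together 40.9 and 45.2 RPM) and 2 in LNCaP (COL1A1 and VWF, together 36.7 and 36.2 RPM). A row was called higher or lower when its adjusted p in limma, corrected over all rows of the table, was under 0.05. For Brg1 and Sfpq against Input in 22Rv1, a row's spread had 3 degrees of freedom of its own and 12.7 borrowed from other rows. The log2 difference is that of the mean log2(RPM + 1), which understates changes of rows near 1 RPM. RPM is a share, so less of a member and more of the other RNAs cannot be told apart, and in bulk RNA neither can fewer cells of a type and less RNA per cell.

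Mitochondrial RNA was the member set with the lowest recovery by Brg1 in both lines. In 22Rv1 the mitochondrial rows took 1.62% and 1.94% of the reads in Input and 0.199% and 0.227% in Brg1. The Sfpq libraries had 1.67% and 1.66%, and the IgG libraries had 1.23%, 2.14% and 2.87%. Both Brg1 libraries lay below every other 22Rv1 library, and Sfpq lay within the range of Input. The Brg1 mean was 0.120 of the Input mean. In LNCaP the mitochondrial rows took 3.86% and 4.58% in Input and 1.40% and 0.786% in Brg1, a Brg1 mean of 0.259 of Input. The shallow LNCaP IgG libraries had 1.07% (95% Wilson interval 0.941 to 1.21) and 2.30% (2.17 to 2.45), so in that line Brg1 replicate A lay between the IgG libraries and replicate B below both. With 2 libraries a group an exact permutation test of such a share could not reach the threshold, and the shares carry no test.

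**Figure D1:**
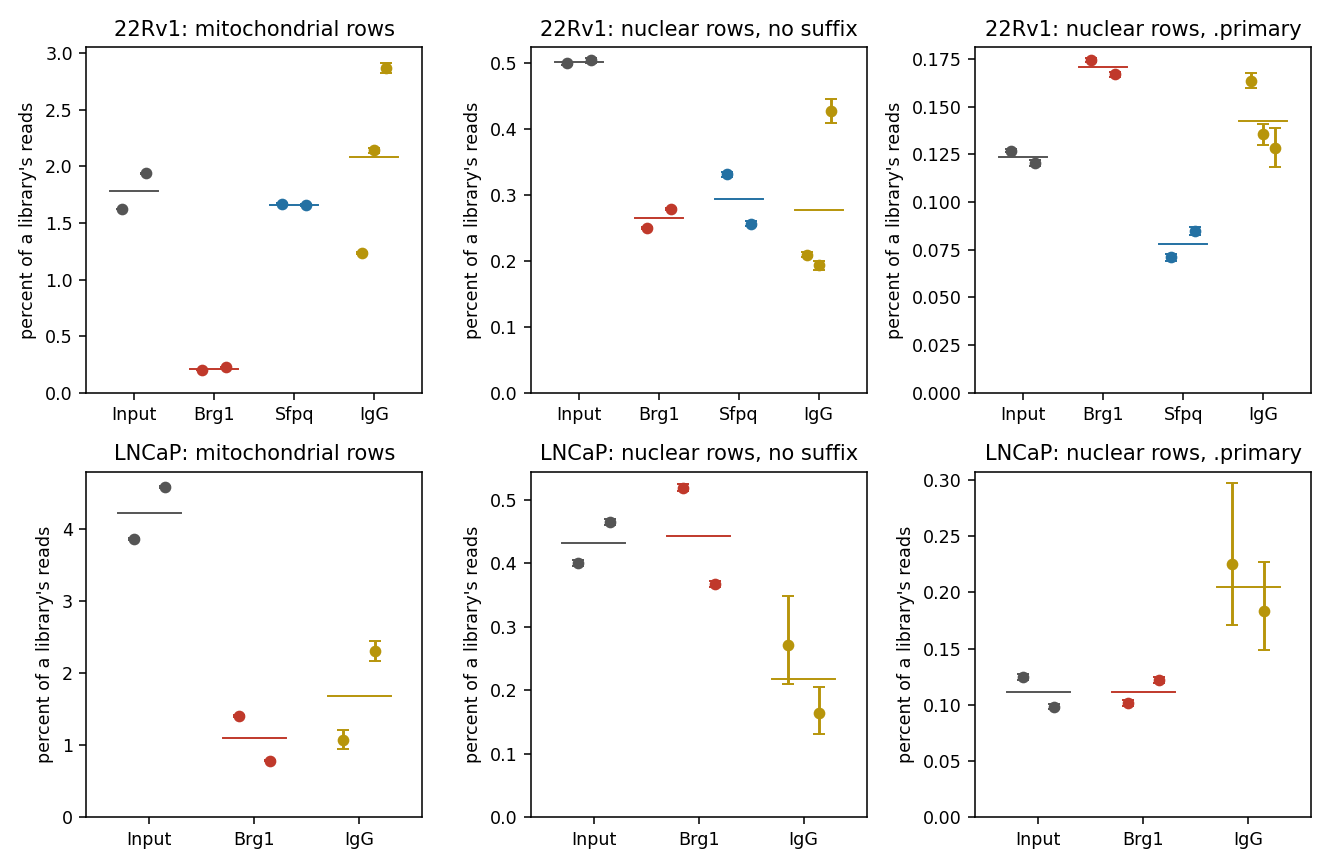
Percent of a library's reads on the mitochondrial, nuclear plain ("no suffix") and nuclear .primary member rows, 22Rv1 above and LNCaP below. Each point is a library with its 95% Wilson interval, which covers counting error only, and the line is the group mean. The 22Rv1 Brg1 libraries sit at 0.199% and 0.227% of mitochondrial reads, under the other 22Rv1 libraries.

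Row by row, all 18 mitochondrial rows of 22Rv1 were called lower in Brg1 than in Input, with a median log2 difference of -2.96 and a range of -3.56 to -0.96. Of all plain rows of the table, 74.3% were called lower and 2.43% higher, with a median of -0.77. MT-ND1, a core subunit of complex I (positions 3307 to 4262 of the mitochondrial genome in RefSeq GRCh38.p14), had 1211 and 1171 RPM in Input and 97.4 and 103 RPM in Brg1, a log2 difference of -3.56, standard error 0.13, adjusted p = 1.88e-10. This was the lowest of the 18 log2 differences, whereas in the ratio of mean RPM with no pseudocount MT-RNR2 (0.0385 of Input) and MT-ND2 (0.0835) lay below MT-ND1 (0.0841). MT-CO1, the catalytic subunit of complex IV (positions 5904 to 7445), had 5266 and 5993 RPM in Input and 686 and 744 RPM in Brg1 (-2.97, standard error 0.17, adjusted p = 8.66e-09). MT-CYB, cytochrome b of complex III (positions 14747 to 15887), went from 1102 and 1418 RPM to 144 and 179 RPM (-2.95), and MT-ATP6, the proton channel subunit of complex V (positions 8527 to 9207), from 781 and 911 RPM to 79.4 and 90.9 RPM (-3.30). The groups did not overlap in any of the 18 rows. Of all plain rows, 85.2% had both Brg1 libraries below both Input libraries. All 13 mRNA rows had a log2 difference of -2.75 or lower.

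The rRNA and tRNA rows spread more widely. MT-RNR2, the large mitochondrial rRNA, which ribosomal depletion removes in part, had 13.4 and 4.80 RPM in Input and 0.105 and 0.597 RPM in Brg1 (-2.78, standard error 0.45, adjusted p = 6.36e-05). These were 5 and 27 reads in the Brg1 libraries. The 4 tRNA rows ranged from -3.29 to -0.96. The smallest fall was that of MT-TS1, the tRNA for serine that follows MT-CO1, at 48.1 and 51.2 RPM in Input and 21.3 and 29.4 RPM in Brg1 (-0.96, standard error 0.17, adjusted p = 1.83e-04). MT-TS1, MT-TH and the other mitochondrial rows outside MT-ND1, MT-CO1, MT-CYB, MT-ATP6 and MT-RNR2 were picked out after their values were seen. Because rRNA was depleted before sequencing, the rRNA rows do not measure rRNA abundance.

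In LNCaP, Brg1 gave the same direction in 20 of 21 mitochondrial rows, with a median of -1.96. Of all plain rows of that table, 20% were called lower and 2.1% higher, with a median of -0.28. MT-ND1 had 2924 and 3533 RPM in Input and 863 and 432 RPM in Brg1 (-2.39, standard error 0.29, adjusted p = 3.19e-14), and MT-CO1 had 9789 and 11799 RPM and 4116 and 2614 RPM (-1.71, standard error 0.32, adjusted p = 5.36e-06). Replicate A of Brg1 was above replicate B in both genes, and both lay below the Input libraries. The LNCaP fit took its spread wholly from all rows at a similar level, so its small p-values do not rest on a row's own spread. MT-RNR2 fell furthest, from 89.2 and 85.5 RPM to 6.75 and 1.59 RPM, a log2 difference of -4.30. The exception was MT-TS1, with 77.0 and 85.0 RPM in Input and 137 and 83.6 RPM in Brg1, where the groups overlapped (0.40, standard error 0.25, adjusted p = 0.237). Of the 18 mitochondrial rows in both tables, 17 were called lower in both lines, where 19.7% of all plain rows tested in both tables were.

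Per length, the order of the mitochondrial messages differed in part between Brg1 and Input. In 22Rv1 Input, MT-CO1 stood at 3651 RPM per kb, MT-CO2 at 2351, MT-CO3 at 2143 and MT-ND6, the only message of the other strand, at 455. In Brg1 these were 464, 262, 318 and 50.0 RPM per kb. MT-CO1 was highest and MT-ND6 lowest of these 4 in both groups, while MT-CO2 and MT-CO3 changed places. MT-CO3 also exceeded MT-CO2 in the 22Rv1 IgG libraries, at 3139 against 1729 RPM per kb. As a share of the reads on the 13 mitochondrial messages, the neighbours MT-ND1, MT-ND2, MT-CO1 and MT-CO2 made up 52.0% ± 1.49 in Input and 50.6% ± 1.11 in Brg1 (each the mean with its SD, n = 2). In LNCaP the shares were 46.5% ± 0.391 and 48.2% ± 1.52 (SD, n = 2 each). MT-ND2, MT-ND4 and MT-CO3 were among the messages whose shares in Brg1 and Input did not overlap in either line. MT-ND2 made up 3.75% and 4.33% in 22Rv1 Input and 2.88% and 2.86% in Brg1, MT-ND4 10.7% and 11.7% and then 8.73% and 8.26%, and MT-CO3 9.43% and 9.64% and then 11.8% and 12.1%. In LNCaP the means went from 5.48% to 3.52% for MT-ND2, from 13.2% to 9.92% for MT-ND4 and from 10.9% to 13.1% for MT-CO3, in the same directions. They were picked after their values were seen.

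Sfpq recovered mitochondrial RNA at the total share of Input but in other proportions. Of the 18 rows, 6 were called higher and 5 lower, with a median of -0.06, where 38.4% of all plain rows were called higher and 20.3% lower (median 0.22). The rows that rose were MT-ATP8 (1.26), MT-ND3 (1.18), MT-ND4L (1.41), MT-ND4 (0.67), MT-TH (3.10) and MT-ND5 (1.21), all between positions 8366 and 14148. The rows that fell were MT-ND1 (-1.16), MT-ND2 (-1.27), MT-TC (-0.75), MT-CO1 (-1.56) and MT-CO2 (-0.94), all between positions 3307 and 8269. The rows that rose and those that fell therefore occupied separate stretches of the genome, in an order that was seen in the data and not tested.

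MT-ND5 (positions 12337 to 14148), a proton-pumping subunit of complex I, had 1710.3 and 2276 RPM in Input, 4529 and 4594 RPM in Sfpq and 245 and 298 RPM in Brg1. MT-ND4L (positions 10470 to 10766), a small subunit of complex I, had 241 and 180.4 RPM in Input, 527 and 589 RPM in Sfpq and 24.9 and 28.6 RPM in Brg1. MT-TH, the histidine tRNA between MT-ND4 and MT-ND5 (positions 12138 to 12206), had 12.2 and 13.9 RPM in Input and 121 and 117 RPM in Sfpq. In each of these 3 rows both Sfpq libraries lay above both Input libraries, which lay above both Brg1 libraries. The IgG libraries ranged from 2092 to 5101 RPM in MT-ND5, 186 to 595 RPM in MT-ND4L and 73.2 to 143 RPM in MT-TH. Both Sfpq libraries thus lay within the IgG range in all 3 rows, and Sfpq was not tested against IgG. MT-CO1 ran the other way, at 1935 and 1865 RPM in Sfpq against 5266 and 5993 RPM in Input (-1.56, standard error 0.17, adjusted p = 2.46e-06). MT-CYB and MT-ATP6 did not pass the test in Sfpq, with log2 differences of -0.29 (adjusted p = 0.132) and 0.22 (adjusted p = 0.186).

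As a share of the mitochondrial message reads, MT-ND4L, MT-ND4 and MT-ND5 made up 23.7% ± 1.13 in Input, 22.8% ± 0.301 in Brg1, 50.4% ± 1.09 in Sfpq (SD, n = 2 for each of the 3) and 33.5% ± 1.48 in IgG (SD, n = 3). For MT-ND1, MT-ND2, MT-CO1 and MT-CO2 the share in Sfpq was 21.7% ± 0.536 (SD, n = 2) and that in IgG 40.3% ± 2.21 (SD, n = 3). The IgG libraries thus lay between Input and Sfpq in both shares, which were chosen after the row values were seen. The Sfpq libraries held 7139669 and 7352226 reads against 490879 to 4424105 in IgG. MT-ATP8 overlaps MT-ATP6, MT-ND4L overlaps MT-ND4, and nuclear copies of mitochondrial sequence exist, so how reads were divided among these rows is uncertain. With each library of the fit left out in turn, 10 to 12 mitochondrial rows were called in Sfpq, and on the authors' scaling 1 was called higher and 5 lower.

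**Figure D2:**
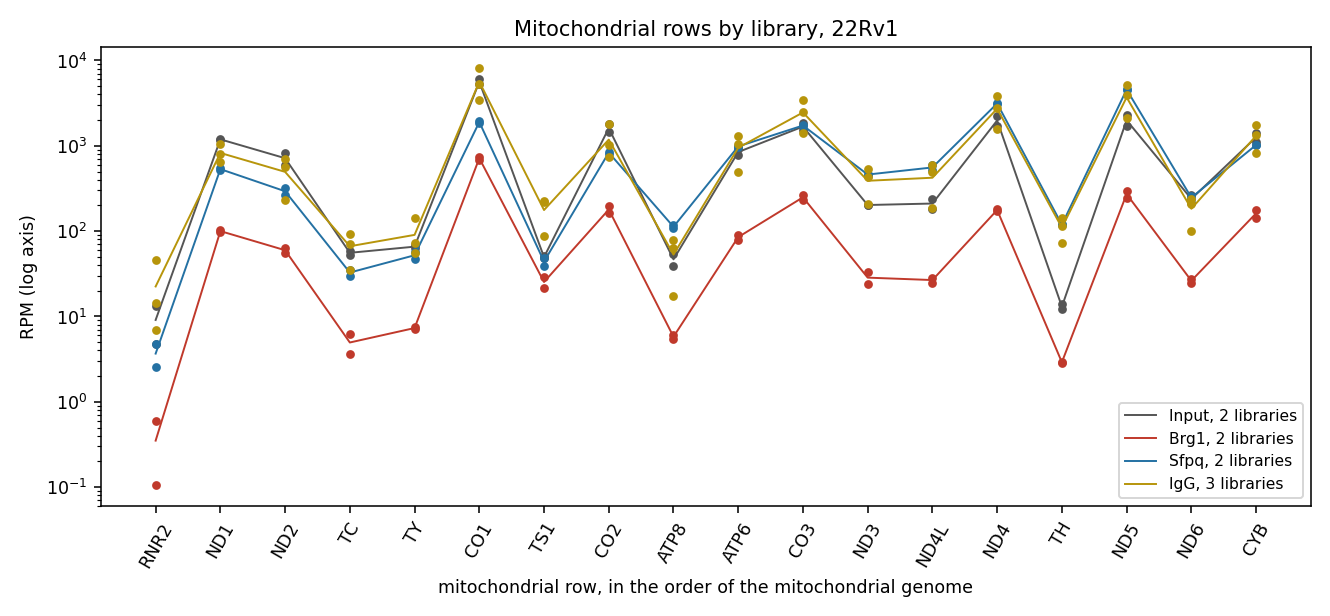
RPM (log axis) of the 18 mitochondrial rows of 22Rv1, in the order of the mitochondrial genome. Points are libraries and lines join group means (Input, Brg1 and Sfpq 2 libraries each, IgG 3). The Brg1 line runs below the others throughout, and the Sfpq line crosses from below Input at MT-ND1 to above it at MT-ND5.

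The antibodies were also compared with each other. All 18 mitochondrial rows were called lower in Brg1 than in Sfpq, with a median of -2.73, where 70.7% of all plain rows were called lower and 4.97% higher. Against IgG, which is the background of a non-specific antibody, all 18 were again called lower in Brg1 (median -3.28, range -4.78 to -2.62), where 1.71% of all plain rows were called lower and 6.53% higher. MT-ND1 had 642, 1039 and 794 RPM in IgG and MT-CO1 had 3479.6, 5311 and 8118 RPM. Every IgG library exceeded both Brg1 libraries in both genes. On the authors' own scaling, on which the IgG libraries have far lower totals, the Brg1 to IgG difference reversed in 17 of the 18 rows. Between IgG and Input 1 mitochondrial row was called, MT-TH, at 73.2, 114 and 143 RPM in IgG (2.93, standard error 0.48, adjusted p = 0.00554), where 0.0553% of all plain rows were called higher. Leaving out single libraries gave 0 to 6 called mitochondrial rows in that comparison.

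The nuclear plain rows of the oxidative phosphorylation genes were lower in Brg1 than in Input in 22Rv1, as most plain rows were. Together they took 0.499% and 0.504% of the reads in Input and 0.250% and 0.279% in Brg1, with 0.331% and 0.256% in Sfpq and 0.209%, 0.193% and 0.427% in IgG. The Brg1 and Sfpq libraries thus all lay within the IgG range. The group means were 0.527 of Input in Brg1, 0.585 in Sfpq and 0.551 in IgG. Of 102 rows, 89 were called lower and 1 higher in Brg1 than in Input, with a median of -1.03. The background for all plain rows was 74.3% lower and 2.43% higher, with a median of -0.77, and the share of called members, 87.3%, stood above it. The only row called higher was SDHAP1, a pseudogene of SDHA (0.60, standard error 0.24, adjusted p = 0.0341), which shares sequence with its parent and is uncertain. In 96 of 102 rows both Brg1 libraries lay below both Input libraries, where the figure for all plain rows was 85.2%. Over the plain reads that were not mitochondrial, the members took 0.813% in Input and 0.743% in Brg1 (means).

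By role, complex III had all 8 rows called lower (median -1.32), complex IV 17 of 19 (-1.17), complex V 18 of 19 (-0.996), complex I 40 of 46 (-0.93) and complex II 4 of 6 (-0.70). Nuclear members not named as assembly factors, pseudogenes or readthroughs were counted as subunits, ATP5IF1 and COX7A2L among them. Subunits so counted had 76 of 79 lower (median -1.03) and assembly factors 11 of 19 (-0.78). In complex I, NDUFB1, an accessory subunit, had 27.6 and 24.4 RPM in Input and 6.37 and 7.51 RPM in Brg1 (-1.76, standard error 0.22, adjusted p = 3.95e-06). NDUFS1, which carries iron-sulfur clusters of the electron path, had 76.1 and 85.8 RPM and 49.0 and 49.9 RPM (-0.70, standard error 0.15, adjusted p = 7.17e-04). NDUFB1 had the lower log2 difference, a contrast that was not tested, and in both genes the Brg1 and Input libraries were separate. NDUFV1, the flavoprotein that takes electrons from NADH, fell by 0.68 on the log2 scale, and NDUFAB1, the mitochondrial acyl carrier protein, by 1.07. NDUFA4, now assigned to complex IV but counted here in complex I by its name, fell by 1.30.

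In complex II, SDHA, the flavoprotein that oxidises succinate (chr5:218320-268746), had 127 and 124 RPM in Input and 104 and 124 RPM in Brg1 and did not pass the test (-0.14, standard error 0.14, adjusted p = 0.394), and its sign turned to 0.09 with TMM factors. SDHB, the iron-sulfur subunit, fell by 0.87 on the log2 scale (adjusted p = 0.00103). In complex III, UQCR11, the smallest subunit (chr19:1597169-1605462), had 53.1 and 50.9 RPM in Input and 10.6 and 11.5 RPM in Brg1 (-2.14, standard error 0.21, adjusted p = 5.97e-07). This was the lowest log2 difference of any nuclear subunit row. UQCRC1, a core protein of the same complex, had 105 and 110.3 RPM and 76.7 and 81.1 RPM (-0.44, standard error 0.14, adjusted p = 0.0122), and UQCRFS1, the Rieske protein, fell by 1.08.

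In complex IV, COX4I1, a regulatory subunit, had 135 and 130.2 RPM in Input and 47.3 and 51.9 RPM in Brg1 (-1.40, standard error 0.17, adjusted p = 3.40e-06), and COX5B fell by 1.09. COX18, which inserts a mitochondrially made subunit into the membrane, fell by 2.03 from 9.27 and 7.92 RPM to 2.42 and 0.597 RPM, whereas COX19, a copper-handling assembly factor, had overlapping groups at 17.5 and 17.2 RPM and 16.1 and 17.4 RPM. The extremes of complex IV were thus both assembly factors. In complex V, ATP5F1A and ATP5F1B, the alpha and beta subunits of the catalytic head, fell by 0.56 and 0.55. ATP5MPL, a small subunit of the membrane part, had 35.9 and 42.0 RPM in Input and 9.47 and 9.85 RPM in Brg1 (-1.90, standard error 0.24, adjusted p = 5.86e-06). The catalytic subunits lay nearer to Input than the small membrane subunit, a contrast that was not tested.

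Sfpq was low in most nuclear plain members, although most plain rows were not low in it. Of the 102 nuclear plain rows, 75 were called lower and 2 higher in Sfpq than in Input (median -1.01). Of all plain rows, 20.3% were called lower and 38.4% higher (median 0.22). Complex I had 38 of 46 lower, complex II 2 of 6, complex III 5 of 8, complex IV 15 of 19 and complex V 15 of 19. Subunits had 64 of 79 lower (median -1.15) and assembly factors 11 of 19 (-0.56). The lowest was ATP5F1E, the small epsilon subunit of the ATP synthase, at 58.7 and 48.6 RPM in Input and 9.66 and 6.12 RPM in Sfpq (-2.64, standard error 0.21, adjusted p = 1.74e-07). UQCRQ of complex III had 42.3 and 45.3 RPM and 12.6 and 5.03 RPM (-2.31), COX8A of complex IV had 103 and 107 RPM and 26.6 and 18.4 RPM (-2.19), and NDUFA1 of complex I had 64.4 and 66.5 RPM and 19.5 and 11.8 RPM (-2.04). In each of these 4 small subunits both Sfpq libraries lay far below both Input libraries. As a set, the nuclear plain members had Sfpq shares within the IgG range, as given above, and Sfpq was not tested against IgG.

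The 2 rows called higher in Sfpq were NDUFS1, at 139 and 109 RPM against 76.1 and 85.8 RPM in Input (0.60, standard error 0.15, adjusted p = 0.00270), and COX19, at 31.4 and 29.4 RPM against 17.5 and 17.2 RPM (0.77, standard error 0.17, adjusted p = 9.98e-04). Both had separate groups. The catalytic ATP synthase subunits did not pass the test (ATP5F1A -0.26, ATP5F1B -0.10), nor did SDHA (0.13) or UQCRC1 (-0.21). Brg1 and Sfpq share the Input libraries and were therefore compared directly. In that comparison 16 nuclear plain members were called higher in Brg1 and 18 lower (median 0.08), where 4.97% of all plain rows were higher and 70.7% lower (median -0.93). NDUFS1 was among those lower in Brg1 (-1.29, standard error 0.15, adjusted p = 8.92e-07), and ATP5F1E among those higher (1.001, standard error 0.21, adjusted p = 3.47e-04). On the authors' scaling 5 members were called, 1 higher and 4 lower.

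**Figure D3:**
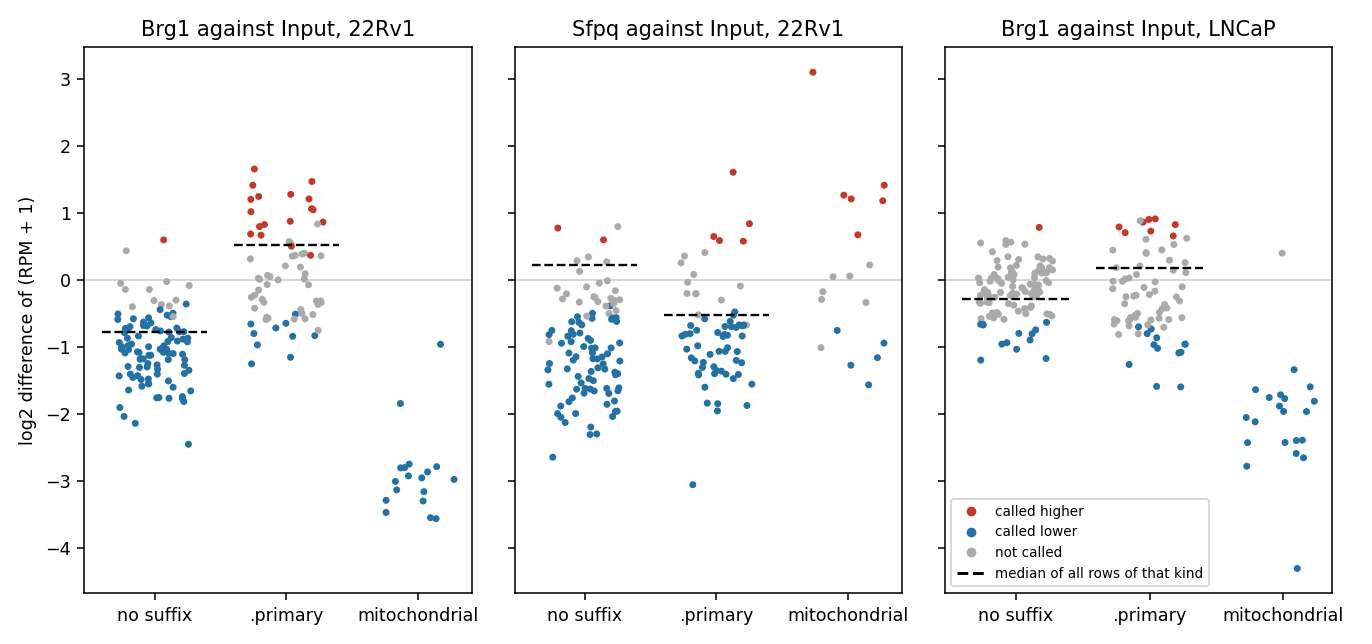
Log2 difference of (RPM + 1) for every member row, by kind of row, in the 3 antibody comparisons with Input. Each point is a row, coloured by its call, and the dashed lines are the medians of all rows of that kind. Nuclear plain members lie below the dashed line in Sfpq, at a median of -1.01 against 0.22, and the mitochondrial members have the lowest median in Brg1, with MT-TS1 above the rest of them.

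In LNCaP the plain rows moved little. The members took 0.40% and 0.465% of the reads in Input, 0.518% and 0.367% in Brg1 and 0.270% and 0.164% in IgG. The Brg1 and Input libraries overlapped. Of 103 rows, 13 were called lower and 1 higher (median -0.16), against 20% and 2.1% of all plain rows (median -0.28). The rows called lower were 2 of complex I, 4 of complex III, 5 of complex IV and 2 of complex V. Among the low ones were NDUFAF8, a complex I assembly factor, at 26.4 and 30.1 RPM in Input and 15.4 and 9.24 RPM in Brg1 (-1.17, standard error 0.26, adjusted p = 1.56e-04), UQCR11 at 44.1 and 42.1 RPM and 27.2 and 17.3 RPM (-0.96), and ATP5F1E at 35.9 and 44.2 RPM and 26.4 and 16.6 RPM (-0.90). In all 3 genes both Brg1 libraries lay below both Input libraries. COX20, an assembly factor of complex IV, had the lowest value, at 4.82 and 12.9 RPM in Input and 3.30 and 2.598 RPM in Brg1 (-1.19, adjusted p = 0.00837). Its Input libraries lay far apart, and without Input replicate B its difference was -0.57 (adjusted p = 0.656). SDHA was the only row called higher, at 53.3 and 64.7 RPM in Input and 113 and 91.7 RPM in Brg1 (0.78, standard error 0.25, adjusted p = 0.0122), and it turned to -0.58 on the authors' scaling, where 101 rows were called lower and none higher. Leaving out single libraries gave 0 to 27 called rows: 0 without Input replicate B, 2 without Input replicate A, 6 without Brg1 replicate B and 27 without Brg1 replicate A.

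The .primary rows of the nuclear members behaved unlike their plain rows in 22Rv1. They took 0.127% and 0.121% of the reads in Input, 0.175% and 0.167% in Brg1, 0.0710% and 0.0847% in Sfpq and 0.164%, 0.135% and 0.128% in IgG. Both Brg1 libraries lay above both Input libraries, and both Sfpq libraries below. Of 67 rows, 18 were called higher and 10 lower in Brg1 (median 0.01), where 51.4% of all .primary rows were called higher and 9.76% lower (median 0.53). The split moved to 23 higher and 5 lower with TMM factors and to 1 higher and 5 lower on the authors' scaling. By role, complex I had 8 higher and 4 lower of 31, complex II 2 and 2 of 5, complex III none of 3, complex IV 4 and 1 of 13, and complex V 1 and 3 of 11. Assembly factors had 5 higher and 1 lower of 15, and subunits 10 and 9 of 48.

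The .primary row of COX10, the enzyme that makes the heme a precursor for complex IV (chr17:14069504-14208677), had 29.2 and 30.4 RPM in Input and 93.9 and 98.0 RPM in Brg1 (1.66, standard error 0.15, adjusted p = 1.87e-07). Its plain row had 13.996 and 13.1 RPM and 8.10 and 7.60 RPM (-0.72, standard error 0.20, adjusted p = 0.00471). The 2 rows of the gene thus changed in opposite directions. SDHA.primary rose from 54.2 and 54.0 RPM to 148 and 155 RPM (1.47, standard error 0.14, adjusted p = 2.77e-07), NDUFB6.primary from 10.3 and 9.66 RPM to 27.8 and 28.7 RPM (1.41), and ATP5PB.primary by 0.86 on the log2 scale. These encode an electron-entry subunit, an accessory subunit of complex I and the stator b subunit of the ATP synthase. COX5A.primary (-1.25), NDUFB1.primary (-1.15) and ATP5F1A.primary (-0.83) were the lowest of their complexes, and each passed the test. SDHA shares sequence with the pseudogenes SDHAP1, SDHAP2 and SDHAP3, and several small subunits have near-identical processed copies, so their counts are uncertain.

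The same rows varied widely between the IgG libraries. SDHA.primary had 232, 64.0 and 30.6 RPM in the IgG libraries and COX10.primary had 103, 40.0 and 22.4 RPM, so in both genes the IgG range reached from below Input to above Brg1. Between IgG and Input 1 member .primary row was called higher and 8 lower, where 0.685% and 8.64% of all .primary rows were. For plain rows 12 members were lower and none higher, where 8.85% and 0.0553% were. The .primary row higher in IgG was COX7B2.primary, at 80.2, 49.1 and 118 RPM in IgG against 3.20 and 2.06 RPM in Input and 5.62 and 5.52 RPM in Brg1. Between Brg1 and IgG 7 plain members were called higher and none lower (6.53% and 1.71% of all plain rows), and 7 .primary members higher and 1 lower (10.6% and 0.248%). SDHB.primary, with 0.678, 2.28 and 8.15 RPM in IgG and 27.0 and 30.1 RPM in Brg1, had a log2 difference of 2.998, standard error 0.92, adjusted p = 0.0923, which did not pass. The median over the nuclear plain members between Brg1 and IgG was 0.92, and it turned to -0.16 with DESeq2. Leaving out 1 library in turn gave 2 to 34 plain and 4 to 26 .primary calls between Brg1 and IgG.

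In Sfpq 50 of 67 .primary rows were called lower and 5 higher (median -0.81), where 50.7% of all .primary rows were lower and 11.8% higher (median -0.52). The lowest was ATP5PO.primary, from the stator subunit OSCP, at 11.4 and 9.04 RPM in Input and 0.420 and 0.272 RPM in Sfpq (-3.05, standard error 0.33, adjusted p = 2.46e-06), the latter 3 and 2 reads. The highest was NDUFA4L2.primary, a paralog of NDUFA4 known as a hypoxia-induced gene, at 10.4 and 9.29 RPM and 29.3 and 34.8 RPM (1.61, standard error 0.21, adjusted p = 1.23e-05). The other 4 rows called higher were those of ATP5MF-PTCD1, NDUFB2, NDUFS6 and NDUFS7, named after their values were seen. Brg1 exceeded Sfpq in 45 .primary rows and was lower in 3, where 72.8% and 7.99% of all .primary rows were called. In LNCaP 8 .primary rows were called higher and 13 lower in Brg1 (median -0.28), where 23.2% and 8.25% of all .primary rows were (median 0.18). COX10.primary had 29.3 and 22.5 RPM in LNCaP Input and 36.9 and 50.7 RPM in Brg1 (0.73, standard error 0.26, adjusted p = 0.0218), and NDUFB1.primary fell by 1.59. With either Input library left out, 1 LNCaP .primary row was called, and on the authors' scaling 64 were called lower and none higher.

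The share of a gene's reads on its .primary row does not move with the scaling of a library. The tested ratio has 1 RPM added to each row, so for rows near 1 RPM it understates the change and depends in part on scaling. Among the 60 members with both rows, the ratio of .primary to plain was called higher in Brg1 for 35 and lower for none (median log2 difference 0.98), where 67% of 8246 genes with both rows were called higher and 0.776% lower (median 1.10). The members' share called was thus no higher than that of all genes. Complex IV had 10 of 11 higher, complex I 16 of 30 and complex V 5 of 12. In COX17, a copper chaperone of complex IV, 16.2% and 23.9% of the gene's reads lay on the .primary row in Input and 69.5% and 66.9% in Brg1 (2.65, standard error 0.32, adjusted p = 2.56e-07). In NDUFB6 the shares were 28.6% and 33.2% in Input and 71.2% and 74.8% in Brg1 (2.44), and in COX10 67.6% and 69.9% and 92.1% and 92.8% (2.37). The IgG libraries, not in this fit, had 97.9%, 98.8% and 76.7% in NDUFB6, all above Brg1. They had 99.8%, 100% and 61.1% in COX10, and COX17 had IgG reads in replicate A only (96.8%). Over all nuclear member reads the .primary share was 19.8% in Input, 39.3% in Brg1 and 36.1% in IgG (means). A higher share than in Input was thus not particular to Brg1. At the other end ATP5F1A (-0.27), NDUFAF1 (-0.25) and SDHAP1 (-0.23) did not pass the test.

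In Sfpq the ratio was called higher in 14 members and lower in 13 (median -0.17), where 9.86% of all such genes were higher and 57.1% lower (median -0.91). NDUFB2, an accessory subunit of complex I, had 27.2% and 24.9% of its reads on the .primary row in Input and 59.9% and 78.2% in Sfpq (2.58, standard error 0.34, adjusted p = 1.71e-06), followed by NDUFS6 (2.11) and NDUFS7 (1.98) of the same complex. ATP5PO had 14.4% and 9.70% and 0.898% and 0.897% (-2.06), followed by SDHC (-1.69), the membrane anchor of complex II, and ATP5PB (-1.68). ATP5PO.primary averaged 0.346 RPM in Sfpq, so its tested difference understates the change in the shares. The IgG libraries spanned 38.3% to 99.3% in NDUFB2 and 0% to 10.4% in ATP5PO, and Sfpq lay within that range in both genes. The members thus split in both directions. In LNCaP 1 of 69 members was called higher and 2 lower in Brg1 (median -0.15), where 12.3% and 1.34% of 7993 genes were (median 0.31). All members had the same standard error in that ratio fit, 0.47, so its p-values do not rest on a gene's own spread. COX20 had 72.6% and 47.3% in Input and 86.5% and 90.1% in Brg1 (2.02, standard error 0.47, adjusted p = 6.61e-04; 1.33 without Input replicate B, adjusted p = 0.464), and ATP5F1A (-1.64) was among those lower. Leaving out single libraries gave 28 to 36 calls for Brg1 in 22Rv1, 18 to 31 for Sfpq and 0 to 10 for LNCaP.

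**Figure D4:**
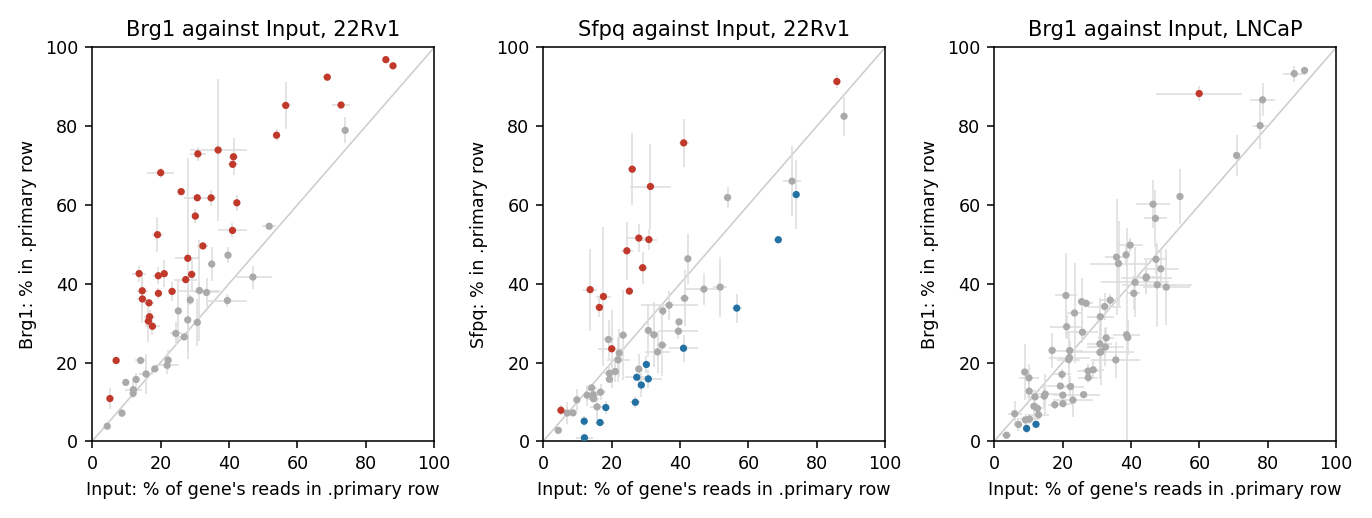
Percent of a gene's reads on its .primary row, in Input (horizontal axis) and in the antibody libraries (vertical axis), for members with both rows. Points are group means, grey lines span the 2 libraries of a group, and red and blue mark ratios called higher and lower. Most 22Rv1 Brg1 points lie above the diagonal, Sfpq points lie on both sides, and 3 LNCaP points are coloured.

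The lines were set side by side, each against its own Input. Of 100 nuclear plain rows in both tables, 11 were called lower in both lines and none higher in both, where 19.7% and 0.725% of all plain rows tested in both tables were. These 11 were ATP5F1E, ATP5MPL, COX14, COX16, COX17, COX8A, NDUFAF8, UQCR11, UQCRB, UQCRH and UQCRQ, small subunits and assembly factors. Of 63 .primary rows, 6 were lower and 8 higher in both, where 5.39% and 22.8% of all .primary rows were. SDHA.primary, COX10.primary, NDUFB6.primary and ATP5PB.primary were among the 8, a direction that LNCaP kept for none of the 8 on the authors' scaling (-0.71 to -0.36, with COX10.primary at -0.62). SDHA.primary had 31.5 and 24.5 RPM in LNCaP Input and 50.3 and 55.4 RPM in Brg1 (0.90, standard error 0.25, adjusted p = 0.00353). No row was called in opposite directions. In 10 of the 100 plain rows every Brg1 library lay below Input in 22Rv1 and above it in LNCaP, where 8.67% of all plain rows did. One was ATP5F1A, at 179 and 191 RPM in 22Rv1 Input and 116 and 135 RPM in Brg1, but 219 and 256 RPM in LNCaP Input and 408 and 297 RPM in Brg1. The LNCaP difference did not pass the test (0.55, standard error 0.26, adjusted p = 0.101). On the authors' scaling it turned to -0.82 and passed the limma test as lower (adjusted p = 0.0488). The difference between the lines was not tested.

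**Figure D5:**
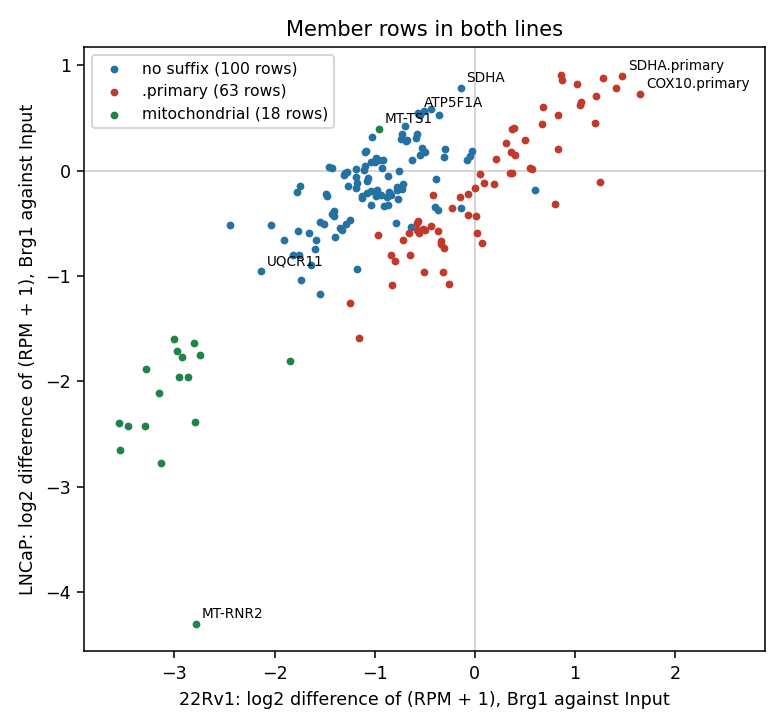
Log2 difference of (RPM + 1) between Brg1 and Input for member rows in both tables, 22Rv1 on the horizontal and LNCaP on the vertical axis. Each point is a row, coloured by kind. Mitochondrial rows other than MT-TS1 lie at the lower left, and SDHA.primary and COX10.primary lie at the upper right.

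Other genes of the organelle were counted in the same fits. In 22Rv1 Brg1, plain rows called lower numbered 14 of 16 for electron carriers and assembly factors outside the members (median -0.62), 9 of 13 for mitochondrial DNA expression (-0.60), 9 of 13 for the citric acid cycle (-0.55) and 64 of 76 for the mitochondrial ribosome (-0.88, with 1 higher). Cytoplasmic ribosomal protein genes had all 83 lower (-1.76). In Sfpq the counts lower were 4 of 16, 2 of 13, 1 of 13, 41 of 76 and 82 of 83, and those higher 2, 4, 2, 4 and 1. The nuclear members, with 75 of 102 lower in Sfpq, stood between the mitochondrial and the cytoplasmic ribosomal genes. In LNCaP Brg1 the counts lower were 0 of 18, 1 of 14, 0 of 13, 5 of 77 and 60 of 82, and 1 mitochondrial ribosomal row was higher. These counts carry no test of 1 list against another.

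The members are short genes. Of the 109 nuclear members in 22Rv1, 108 had a RefSeq span, with a median of 12.2 kb against 37.2 kb for all genes, and 5.06 kb for cytoplasmic ribosomal protein genes. Across the member plain rows, span and log2 difference had a Spearman correlation of 0.45 in Brg1 (n = 101 rows), 0.53 in Sfpq (n = 101) and 0.29 in LNCaP Brg1 (n = 102). Rows at or under the median span had a median of -1.18 in Brg1 and -1.34 in Sfpq, and longer ones -0.81 and -0.63. Across the .primary rows it was 0.39 in Brg1, -0.02 in Sfpq and 0.43 in LNCaP Brg1. These are descriptions across genes that share libraries and depth, and genes are not replicates. The part of gene length in the differences was not tested.

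The nuclear members lie on 22 chromosomes and many are known to carry promoter motifs for nuclear respiratory factor 1 (NRF1), YY1 and ETS factors such as GABP. Of the member genes, 88 had a promoter sequence from RefSeq (GRCh38.p14), running from 250 bases before to 50 after the gene's start. On either strand the NRF1 motif GCGCANGCG was in 27 of them (30.7%) and in 8.05% of 27305 promoters of the same length. The ETS motif CCGGAAGT was in 14 (15.9% against 4.44%), and the YY1 motif AAGATGGCG in 9 (10.2% against 1.85%). The motifs were searched separately, and overlapping matches of the same motif were counted once. None of the 3 motifs was in 46 of the 88 promoters. Of the 10 named core genes with a promoter sequence, the 3 with more than 1 match are printed, 5′ to 3′ on the gene's strand with the matches in capitals, to show what such matches look like. SDHA (chr5:218070-218369, + strand) has 4 NRF1 matches with the same letters, UQCRC1 (chr3:48609597-48609896, - strand) has 2 NRF1 matches and 1 YY1 match, and COX5B (chr2:97645812-97646111, + strand) has 2 ETS matches.
SDHA: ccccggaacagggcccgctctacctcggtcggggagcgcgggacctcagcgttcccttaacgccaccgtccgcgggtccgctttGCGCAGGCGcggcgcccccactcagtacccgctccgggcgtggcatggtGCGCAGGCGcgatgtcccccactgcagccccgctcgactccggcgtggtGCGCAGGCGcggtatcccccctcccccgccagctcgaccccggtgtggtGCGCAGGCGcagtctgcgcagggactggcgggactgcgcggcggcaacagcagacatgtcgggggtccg
UQCRC1: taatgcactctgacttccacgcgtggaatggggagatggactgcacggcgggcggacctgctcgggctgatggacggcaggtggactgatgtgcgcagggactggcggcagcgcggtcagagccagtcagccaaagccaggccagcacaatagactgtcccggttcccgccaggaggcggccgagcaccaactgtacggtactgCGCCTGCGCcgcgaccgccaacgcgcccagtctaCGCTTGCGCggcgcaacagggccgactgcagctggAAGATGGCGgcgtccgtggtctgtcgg
COX5B: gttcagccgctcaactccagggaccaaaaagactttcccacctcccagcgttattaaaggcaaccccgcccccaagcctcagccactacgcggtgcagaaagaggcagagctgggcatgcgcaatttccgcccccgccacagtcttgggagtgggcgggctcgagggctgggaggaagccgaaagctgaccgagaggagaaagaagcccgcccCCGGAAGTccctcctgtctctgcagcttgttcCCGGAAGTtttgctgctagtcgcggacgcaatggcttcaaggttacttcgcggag
A match is a run of letters and no measure of binding. Their plain rows had log2 differences of -0.14, -0.44 and -1.09 in 22Rv1 Brg1, of which the last 2 passed the test.

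The calls against Input depended on which libraries set the spread. With the IgG libraries in the 22Rv1 fit, an alternative added after the data were seen, the calls in Brg1 against Input were 0 plain, 0 .primary and 4 mitochondrial member rows, with 5, 5 and 17 at an unadjusted p under 0.05, and in Sfpq none of any kind, with 6, 3 and 8 unadjusted. With IgG in the LNCaP fit none was called either, with 6, 16 and 13 unadjusted. With edgeR on the 22Rv1 libraries without IgG, the calls were 81, 28 and 18 in Brg1 and 70 (69 with DESeq2), 44 and 12 in Sfpq.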

How the data were processed

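RNA immunoprecipitation libraries of 22Rv1 and LNCaP cells were grouped by antibody and cell line as labelled. Per the labels' protocols, cells were fixed in 0.3% formaldehyde for 30 min at 4 °C, spike-in RNA was added, and libraries were stranded and ribosomal RNA-depleted. The submitters' processing notes name hg38, STAR 2.6, Salmon 0.8.2, deepTools 2.5.2 and DESeq2, without their role or order. The deposited values are a signal: counts that the authors normalized with 1 factor per library, in 1 table per line. The basis of the authors' factors is not given in the sources used here. In every library 100% of the values were whole multiples of its smallest value (within 0.001 read), so values were divided by it and expressed as RPM of the listed rows. Depth was 490879 to 47871438 reads in 22Rv1 and 22184 to 7506724 in LNCaP. Wilson intervals (95%) cover counting error only, since these reads carry no molecular identifiers and may repeat a molecule.

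Tests used limma 3.58.1 (R 4.3.3) on log2(RPM + 1) with a trended prior, for rows with a mean of at least 1 RPM, with Benjamini-Hochberg adjustment over all rows and calls at 0.05. All member rows passed this minimum. Brg1, Sfpq and Input shared 1 fit in 22Rv1 (6 libraries) and Brg1 and Input 1 fit in LNCaP (4 libraries). IgG was compared in a fit of all 9 libraries of 22Rv1. The ratio of .primary to plain rows was fitted on log2 of the ratio of (RPM + 1). Named genes were a panel of core subunits, the highest and lowest member of each complex in each comparison with Input, and the 3 highest and 3 lowest ratios, apart from 1 gene that is counted but not reported here by name. The members, lists and tests were chosen with earlier results of these data known. Whether the replicate letters pair libraries is not known, and the main fits took them as unpaired. Correlations of A minus B across rows were 0.015, -0.057 and -0.147 in 22Rv1 and -0.359 in LNCaP. With 1 such difference per group they cannot settle the pairing. Alternatives were edgeR 4.0.16, DESeq2 1.42.0, TMM factors, the authors' scaling, other pseudocounts (0.1 and 5 RPM) and minimum levels (5 RPM, none), a replicate block, other sets of libraries, and each library left out. Simulated counts were used to test the scripts. RefSeq (GRCh38.p14) supplied positions for 109 nuclear and 21 mitochondrial members, and promoter sequences.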

Additional observations from a re-analysis of the deposited data

Results flagged for a closer look

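In 10 of the 100 nuclear plain rows of both tables, every Brg1 library lay below Input in 22Rv1 and above Input in LNCaP, where 8.67% of all plain rows did. The members' share was thus close to that of all plain rows. Of these rows 5 were named ones. The log2 differences in 22Rv1 and LNCaP were -0.56 and 0.55 for ATP5F1A, -0.55 and 0.53 for ATP5F1B, and -0.70 and 0.42 for NDUFS1. They were -0.68 and 0.29 for NDUFV1 and -0.44 and 0.59 for UQCRC1. These genes encode the catalytic head of the ATP synthase, core subunits of complex I and a core protein of complex III. All 5 came from the panel of core subunits, so their shared role follows from how rows were named. None of the 5 LNCaP differences passed the limma test. On the authors' scaling all 5 LNCaP values were below 0, the direction of 22Rv1. There ATP5F1A, ATP5F1B, NDUFS1 and NDUFV1 passed the limma test as lower (adjusted p = 0.0488, 0.0466, 0.0246 and 0.0119), and UQCRC1 did not (0.0532). Most plain members were called lower in LNCaP on that scaling. The lines were scaled and fitted apart, and the difference between them was not tested. Groups of 2 and 3 libraries were too small for a check of single outlying libraries.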

How the results depend on the processing

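Counts are of member rows called (limma unless named), with the count as reported in brackets. With IgG libraries in the fit, an alternative added after seeing the data for 22Rv1, Brg1 against Input gave 0 plain (90), 0 .primary (28) and 4 mitochondrial rows (18) in 22Rv1, with 5, 5 and 17 at an unadjusted p under 0.05. Sfpq against Input gave 0 plain (77), 0 .primary (55) and 0 mitochondrial (11), with 6, 3 and 8 unadjusted, and Brg1 against Sfpq gave 0 plain (34), with 3 unadjusted, and 1 .primary (48). LNCaP gave 0 plain (14), 0 .primary (21), 0 mitochondrial (20) and 0 ratios (3), with 6, 16, 13 and 2 unadjusted. With edgeR or DESeq2, which leave IgG out in the same way, no call count of Brg1 or Sfpq against Input in 22Rv1 moved by over 1.5 times. The cause of the losses was not tested.

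On the authors' scaling the median of all rows moved from -0.26 to -0.69 in 22Rv1 Brg1, from -0.19 to -0.72 in Sfpq, from -0.08 to -1.46 in LNCaP, from -0.96 to -7.84 in IgG against Input and from 0.86 to 7.32 in Brg1 against IgG. Called rows became 6 for Brg1 .primary, 6 for Sfpq mitochondrial, 5 for Brg1 against Sfpq plain, 101 plain and 64 .primary in LNCaP, and 102 plain, 67 .primary and 18 mitochondrial for IgG against Input, where mitochondrial rows reversed to lower. Brg1 against IgG became 101 plain, 67 .primary and 17 mitochondrial, the last reversed to higher.

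The replicate block, on letters whose pairing is not known, gave 1 plain, 4 .primary and 1 ratio in LNCaP. It gave 45 plain, 20 .primary and 2 mitochondrial for IgG against Input (12, 9 and 1). For Brg1 against IgG it gave 32 plain and 21 .primary (7 and 8), and it moved no other count by over 1.5 times. With the letters crossed, added after seeing the data, LNCaP gave 34 plain and 35 .primary. DESeq2 gave 11 .primary in LNCaP and 2 mitochondrial for IgG against Input. edgeR gave 5 .primary and 2 mitochondrial for IgG against Input, and 3 plain and 5 .primary for Brg1 against IgG. TMM factors gave 2 mitochondrial for IgG against Input. A pseudocount of 0.1 RPM gave 5 .primary for IgG against Input and 4 for Brg1 against IgG, and a minimum of 5 RPM gave 3, and 4 plain and 2 .primary.

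Leaving out each library in turn, calls ranged over 80 to 90 plain, 18 to 33 .primary and 18 mitochondrial for Brg1 in 22Rv1, 66 to 82, 38 to 54 and 10 to 12 for Sfpq, and 25 to 49, 42 to 51 and 18 for Brg1 against Sfpq. They were 0 to 27, 1 to 26 and 16 to 21 in LNCaP, 6 to 50, 4 to 22 and 0 to 6 for IgG against Input, and 2 to 34, 4 to 26 and 13 to 18 for Brg1 against IgG. Ratios ranged over 28 to 36 in Brg1, 18 to 31 in Sfpq and 0 to 10 in LNCaP. The lowest .primary count came without Input A in 22Rv1 Brg1, and without either Input library in LNCaP. Between IgG and Input, without IgG C 50 plain and 22 .primary rows were called, without IgG A 24 and 21, and without Input A 6 and 4. Between Brg1 and IgG, without IgG C it was 34 and 21, without IgG A 19 and 26, without IgG B 15 and 14, and without Brg1 A 2 and 4. The LNCaP ratios gave 10 without Brg1 A, 8 without Brg1 B, 1 without Input A and 0 without Input B. The lone library of a group was then taken to vary like the other groups.

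Of single named rows, these reversed in sign. In 22Rv1 Brg1 with TMM factors, edgeR and DESeq2 they were NDUFAB1.primary (0.15, 0.16, 0.11), SDHA (0.0927, 0.0979, 0.0503), NDUFAF7 (0.0747, 0.0803, 0.0321), SDHAF2 (0.19, 0.23, 0.19) and COX19 (0.17, 0.18, 0.13), with NDUFS1.primary (0.00187, 0.00243) in the first 2. In Sfpq ATP5F1B turned (0.0489, 0.0581, 0.13), as did UQCRC1 with DESeq2 (0.0222). In LNCaP NDUFA4 (0.0438, 0.0872, 0.0585), NDUFAB1 (0.0196, 0.0433, 0.0157) and SDHB (0.0326, 0.0620, 0.0350) turned. On the authors' scaling UQCRC2.primary turned in 22Rv1 Brg1 (-0.21), and MT-ATP6 (-0.30), SDHA (-0.39), SDHC (-0.25), COX19.primary (-0.0364) and ATP5MPL.primary (-0.11) in Sfpq. In LNCaP ATP5F1A (-0.82), ATP5F1B (-0.85), COX5B (-1.19), NDUFS1 (-0.95), NDUFV1 (-1.08), SDHA (-0.58), SDHA.primary (-0.45), SDHB.primary (-0.89), UQCRC1 (-0.78), NDUFB6.primary (-0.51), UQCRC2.primary (-1.26), COX7B2.primary (-0.40) and ATP5PB.primary (-0.36) turned on that scaling. SDHA, SDHA.primary, NDUFB6.primary, COX7B2.primary and ATP5PB.primary had passed the test in LNCaP, and the other reversed rows had not. With 1 library left out in turn, values spanned 0 for COX4I1.primary (-0.54 to 0.0240), SDHAF2 (-0.30 to 0.26) and COX19 (-0.10 to 0.00237) in 22Rv1 Brg1, ATP5F1B (-0.26 to 0.0531) and SDHA (-0.00764 to 0.26) in Sfpq, COX5B (-0.11 to 0.48), NDUFA4 (-0.40 to 0.31), NDUFAB1 (-0.38 to 0.25), SDHB (-0.35 to 0.25), UQCRFS1 (-0.74 to 0.32) and UQCRC2.primary (-0.0727 to 0.29) in LNCaP, and the ratios of NDUFAF1 (-0.54 to 0.0371) and SDHAP1 (-0.52 to 0.0580) in 22Rv1 Brg1. The cause was not tested for any of these. Over all single values and settings, 1192 kept their direction and their side of the threshold, 126 no longer passed it, 52 newly passed it and 49 reversed. The LNCaP IgG libraries, with 22184 and 46297 reads, entered row tests only in the LNCaP fit with IgG above.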

Other observations

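The .primary rows of other mitochondrial genes were counted in the same limma fit as the members. In Brg1 against Input in 22Rv1, the mitochondrial ribosomal protein genes had 19 rows called higher and 7 lower of 45, and the cytoplasmic ribosomal protein genes 2 higher and 26 lower of 47. Electron carriers and assembly factors outside the members had 3 higher and 2 lower of 14, genes of mitochondrial DNA expression 5 and 2 of 12, and the citric acid cycle 4 and 2 of 10. In Sfpq against Input the counts were 2 higher and 32 lower for the mitochondrial ribosome, 1 and 38 for the cytoplasmic ribosome, 0 and 9 for the carriers, 2 and 9 for mitochondrial DNA expression, and 0 and 7 for the citric acid cycle. In LNCaP Brg1 they were 1 and 6 of 45, 0 and 24 of 48, 2 and 4 of 13, 1 and 3 of 9, and 1 and 2 of 11, in the same order. Of all .primary rows, 51.4% were called higher and 9.76% lower in 22Rv1 Brg1, 11.8% and 50.7% in Sfpq, and 23.2% and 8.25% in LNCaP Brg1.

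Pseudogene and readthrough rows among the members were few. In 22Rv1 Brg1, 3 of their 4 .primary rows were called higher and none lower, where 51.4% and 9.76% of all .primary rows were. Of their 4 plain rows 1 was called higher and 2 lower, where 2.43% and 74.3% of all plain rows were.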
